A study of Caenorhabditis elegans with 6 samples.

Results

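This report concerns DamID in whole Caenorhabditis elegans animals of the strain coded PMW123, comparing males with hermaphrodites. In DamID the protein of interest carries Dam, an adenine methyltransferase from bacteria, so that GATC sites close to it become methylated. Fragments cut at methylated sites are then amplified by PCR and sequenced. The comparison used 4 libraries of the 12 in the deposited count table, chosen by strain code: 2 from PMW123 males and 2 from PMW123 hermaphrodites. Reads were counted in 1005 nuclear bins of 100 kb, of which 178 lie on X and 827 on the autosomes. PMW123 was taken as the strain whose Dam is fused to lmn-1, the gene of the nuclear lamin. Neither the sample labels nor the headers of the files pair strain codes with fusions, so this identity could not be checked and the strain is called by its code.

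The lmn-1 males and the lmn-1 hermaphrodites were collected at the L4 larval stage, both carrying the dam and lmn-1 fusion behind the hsp-16.41 heat-shock promoter, which was left uninduced. The animals grew at 25 °C on a lawn of E. coli, and the labels give 20 entire animals per sample and 10 worms per tube. The series also holds dam fusions to mel-28, a nuclear pore component, and to gfp, a fluorescent protein that serves as a control for untargeted methylation, in the same sexes. The series describes at least 2 replicates per strain. The labels do not say whether the 2 numbered libraries of a sex came from separate tubes, so the p-values measure only the spread between libraries, which may be technical. Whole animals of the sexes also differ in tissues, so a change in how many cells of a type were sampled and a change in methylation per cell cannot be told apart.

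The nuclear lamina is a meshwork of lamin filaments lining the inner nuclear membrane. In C. elegans the arms of the autosomes, which are rich in repeats and in silent chromatin, are the chromosome parts known to lie against it, while the gene-rich centres lie further inside. Hermaphrodites carry a pair of X chromosomes and males carry a single X, and in hermaphrodites a dosage compensation complex binds both X chromosomes and lowers their transcription. With 1 X copy in males against 2 in hermaphrodites, equal methylation per copy would give a log2 difference of -1 on X relative to the autosomes, or 0.5-fold. Levels are therefore counts per 10000 autosomal counts of the same library, a denominator that holds no X counts, and no strain was divided by another.

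The PMW123 libraries were shallow. Male libraries 1 and 2 held 54348 and 22195 counts, and hermaphrodite libraries 1 and 2 held 40019 and 114230. The median autosomal bin had 35 and 12 counts in the male libraries, against 18 and 58 in the hermaphrodite libraries. On X the median bin had 11 and 3 counts in males, against 17 and 59 in hermaphrodites. In male library 2, the shallowest, 26 X bins and 9 autosomal bins had no count, and 1 count there corresponds to 0.482 per 10000 autosomal counts. Libraries of the same sex differed from each other by more than counting noise, with a chi-square per degree of freedom of 2.54 between the male libraries and 4.11 between the hermaphrodite libraries over autosomal bins. None was therefore a repeat deposit of another. Across autosomal bins the log2 levels correlated at Pearson r = 0.84 between the male libraries, 0.87 between the hermaphrodite libraries and 0.82 to 0.87 across sexes, as a description over bins that share composition and neighbours.

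The first question was how the X of males compares with the X of hermaphrodites once the copy number is set beside it. Since no strain was divided by another, these counts do not separate contacts of X with the lamina from untargeted methylation. In PMW123, X was lower in males than the copy number alone gives. The mean count per X bin was 0.293 and 0.304 times the mean per autosomal bin in male libraries 1 and 2, against 0.834 and 0.838 times in hermaphrodite libraries 1 and 2. The values within a sex lay close together, and the sexes did not overlap. On the log2 scale the level averaged -1.74 ± 0.037 in males and -0.26 ± 0.0047 in hermaphrodites (SD, n = 2 each), a difference of -1.49, or 0.357-fold. The pairings of a male with a hermaphrodite library gave differences from -1.52 to -1.46.

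Each of these differences exceeds the -1 that 1 copy against 2 gives. Beyond the copy number the male X was lower by a log2 difference of -0.49, or 0.714-fold. Scaled to a pair of X copies, the X level was 0.586 and 0.608 times the autosomal level in the male libraries, against 0.834 and 0.838 times in the hermaphrodite libraries. The -0.49 beyond the copy number was larger than the SD between the 2 libraries of a sex in this strain (0.037 in males, 0.0047 in hermaphrodites). With 2 libraries against 2, the exact two-sided permutation test gave p = 0.333. This is the smallest p that the design allows, so the test cannot call the difference at 0.05. It sets the sexes against no difference rather than against -1, so it does not address the part beyond the copy number. As a share of nuclear counts, X held 5.93% (95% exact binomial interval 5.74 to 6.14) and 6.14% (5.83 to 6.46) in males, against 15.2% (14.9 to 15.6) and 15.3% (15.1 to 15.5) in hermaphrodites. These intervals cover counting error only, since PCR reads without molecular identifiers are not independent molecules.

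**Figure D1:**
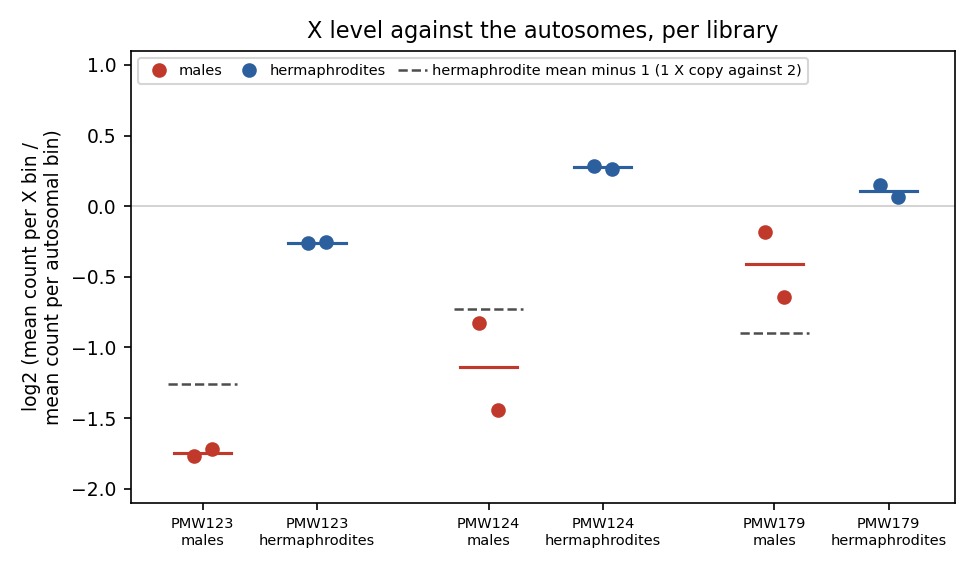
The log2 of the mean count per X bin over the mean count per autosomal bin is plotted for each of the 12 libraries by strain code and sex, with a solid line at each mean of 2 libraries and a dashed line 1 below the hermaphrodite mean. The PMW123 males, at -1.77 and -1.72, lie below their dashed line, the PMW124 males lie below theirs by unequal amounts, and the PMW179 males lie above theirs.

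The same measure in the other strains shows what the X level does without this fusion. PMW124 has the ratio 1 in each of 998 bins in males and 992 bins in hermaphrodites of the authors' deposited table of ratios, so it is the strain they divided by, and was taken as the gfp control. Its X level was -0.83 and -1.44 (log2) in male libraries 1 and 2, against 0.28 and 0.27 in hermaphrodite libraries. The PMW124 male libraries thus lay far apart, where those of PMW123 did not. The SD of the male libraries was 0.43 in PMW124 and 0.33 in PMW179, against 0.037 in PMW123. The sex difference of PMW124 was -1.41, which is -0.41 beyond the copy number. In PMW179, taken as the mel-28 fusion, the X level was -0.18 and -0.64 in males, against 0.15 and 0.064 in hermaphrodites, and the difference of -0.52 lay 0.48 above the copy number.

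The sex difference of X in PMW123 was not shown to differ from that in PMW124. The log2 difference between these sex differences was -0.07, and an exact two-sided permutation of the strain codes within each sex gave p = 1 (Benjamini-Hochberg p = 1 over 2 comparisons). Leaving out 1 library at a time moved it between -0.38 and 0.23, and it was above 0 only without PMW124 male library 1. The difference of PMW123 from PMW179 was -0.97, or 0.511-fold, with an exact permutation p = 0.333 (Benjamini-Hochberg p = 0.667). The smallest p that the 36 relabellings allow is 0.0556, so neither comparison could be called at 0.05. In level, rather than in the difference between sexes, the PMW123 libraries had the lowest X of the series within each sex: both male libraries lay below the 4 other male libraries, and both hermaphrodite libraries below the 4 other hermaphrodite libraries.

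The deficit of the male X was spread along the chromosome. X was cut into 3 parts of nearly equal bin number. The left part had levels of -1.43 and -1.21 (log2 over the autosomal mean) in male libraries, against 0.21 and 0.22 in hermaphrodite libraries. The middle part, the lowest in both sexes, had -2.19 and -2.59 in males, against -0.91 and -1.09 in hermaphrodites. The right part had -1.78 and -1.67 in males, against -0.28 and -0.17 in hermaphrodites. The sexes did not overlap in any part. Beyond the copy number, the log2 difference was -0.53 on the left, -0.39 in the middle and -0.50 on the right. In the order left, middle, right it was -0.46, -0.24 and -0.47 in PMW124, and 0.51, 0.41 and 0.50 in PMW179.

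In windows of 1 Mb, which hold 10 bins and so more counts, both male libraries lay below both hermaphrodite libraries in 18 of 18 windows of X. The copy number alone lowers every X window in males, so this count does not bear on methylation per copy. With the male counts doubled for the copy number, both male libraries still lay below both hermaphrodite libraries in 15 windows. The sexes overlapped in the other 3: the first window, the window at X 7000001 to 8000000 and the window at X 8000001 to 9000000. In the last of these the log2 levels were -0.87 and -0.81 in males, against 0.26 and -0.21 in hermaphrodites, which is 0.14 above the copy number. At the other end was X 11000001 to 12000000, with -2.87 and -3.97 in males, against -1.03 and -0.89 in hermaphrodites, or -1.46 beyond the copy number. Male library 2, the shallowest, was the lower of the male libraries in every window from X 9000001 to X 15000000. Autosomal windows also separated by sex in either direction, such as III 3000001 (lower in males) and IV 15000001 (higher). Their share was not counted. Among all 100 kb bins tested, 21.1% had both male libraries below both hermaphrodite libraries with the male X doubled, so such separation is common.

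**Figure D2:**
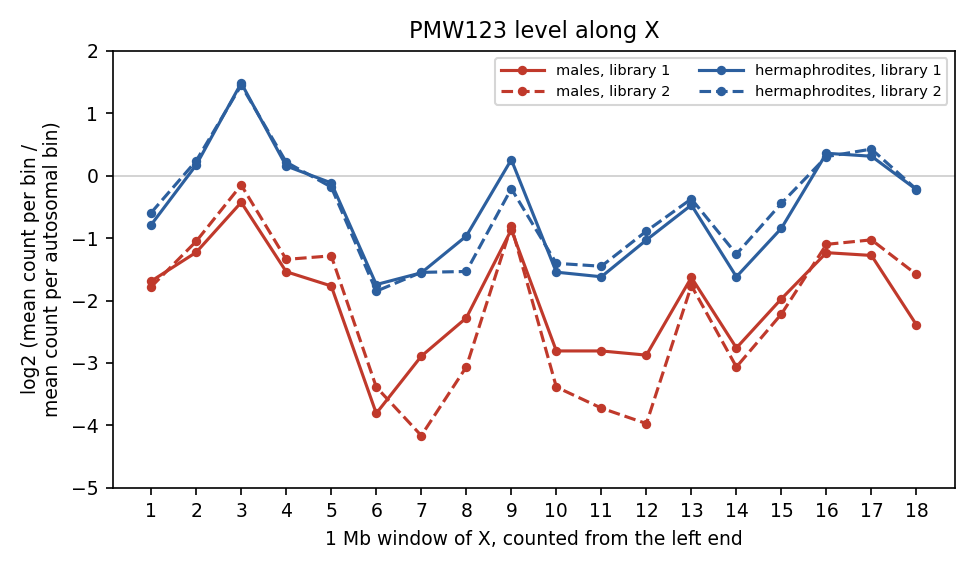
The log2 of the mean count per bin over the autosomal mean is plotted for the 18 windows of 1 Mb along X in the 4 PMW123 libraries. The male lines lie below the hermaphrodite lines in all 18 windows and share peaks at the third window and at the ninth, where the male levels were -0.87 and -0.81.

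A quasi-likelihood test in edgeR with a copy number offset for X asked which windows depart from the copy number. On X, 17 of 18 windows had a fold change below 0 and 5 were called lower in males at an adjusted p under 0.05. Over all 103 windows of the genome 6 were called, or 5.83%. The window X 2000001 to 3000000, the highest of X in hermaphrodites, had 89.9 and 109 counts per 10000 autosomal counts in males, against 338 and 330 in hermaphrodites. Its log2 fold change beyond the copy number was -0.76 (SE 0.12, edgeR adjusted p = 2.4e-07). The male libraries there lie far below the hermaphrodite libraries even when doubled. In PMW124 the window had 194 and 110 in males, against 466 and 467 in hermaphrodites, so its doubled male values also lay below. In PMW179 it had 329 and 296 in males, against 405 and 399 in hermaphrodites.

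The window X 3000001 to 4000000 had 41.6 and 47.7 in males, against 135 and 140 in hermaphrodites, with a log2 fold change of -0.64 (SE 0.18, edgeR adjusted p = 0.0142). The window X 16000001 to 17000000 had 49.8 and 59.3 in males, against 150 and 162 in hermaphrodites, at -0.54 (SE 0.15, edgeR adjusted p = 0.0142). The window X 15000001 to 16000000 had 51.4 and 56.4 in males, against 155 and 149 in hermaphrodites, at -0.51 (SE 0.15, edgeR adjusted p = 0.0244). In all 3 the doubled male values lie below the hermaphrodite values. In PMW124 they also did at X 16000001 (120 and 79.0 in males, against 327 and 248 in hermaphrodites). The doubled PMW124 male values overlapped the hermaphrodite values at X 3000001 (87.9 and 48.5 in males, against 184 and 175). They also overlapped at X 15000001 (93.3 and 56.9, against 177 and 205). The window X 11000001 to 12000000, low in both sexes, had 16.5 and 7.71 in males, against 59.2 and 65.3 in hermaphrodites, at -1.26 (SE 0.38, edgeR adjusted p = 0.0244). In PMW124 it had 27.1 and 28.5 in males, against 63.1 and 62.5 in hermaphrodites. Whether the sex difference of these windows differs between the strains was not tested. These calls are thinly based: DESeq2 called 2 windows in all, and without hermaphrodite library 1 or without hermaphrodite library 2 edgeR called none.

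**Figure D3:**
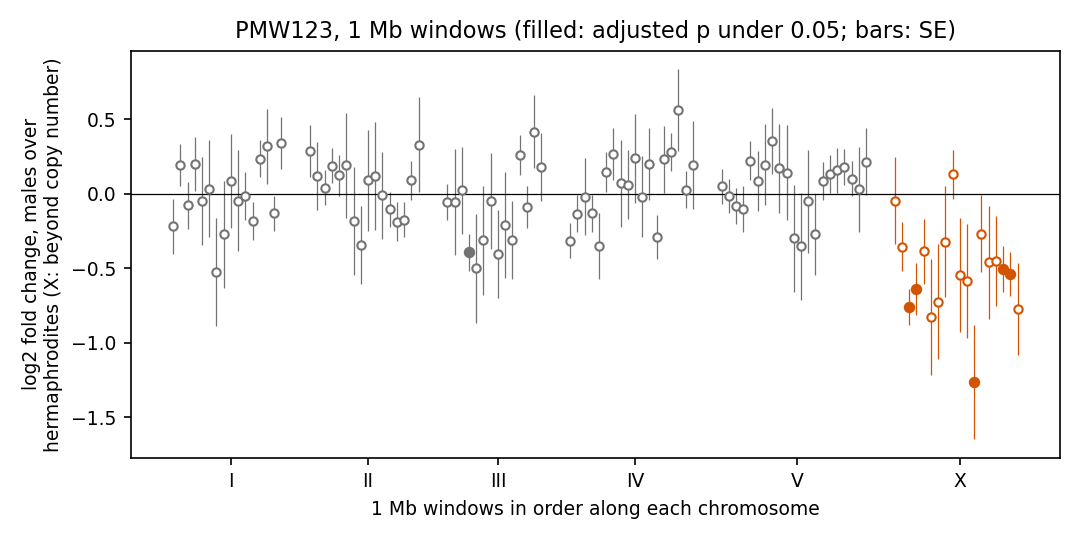
The log2 fold change of males over hermaphrodites, with its SE as a bar, is plotted for 103 windows of 1 Mb in order along each chromosome, where windows of X are relative to the copy number and filled points have an adjusted p under 0.05. Of the X windows 17 of 18 lie below 0, with a median of -0.52, and those of the autosomes scatter on both sides of 0, with a median of 0.03.

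Single 100 kb bins gave the same direction with less certainty. With no allowance for copy number, edgeR called 55 of 177 tested X bins lower in males (31.1%) and none higher, against 63 of all 1001 bins tested, or 6.29%. The copy number lowers every X bin in males, so this count does not bear on methylation per copy. With the copy number offset, 1 X bin was called, which is also the single bin called genome-wide (0.0999%), and 27 X bins had an unadjusted p under 0.05. The median X bin was at -0.57 beyond the copy number, and 143 of 177 X bins (80.8%) were below 0, against 365 of 824 autosomal bins (44.3%). With the male X doubled, both male libraries lay below both hermaphrodite libraries in 83 of 177 X bins (46.9%), against 21.1% of all bins, and above them in 5 (2.82%), against 16.7% of all bins. In PMW124 they lay below in 55 X bins (31.1%, against 12.3% of all bins) and above in 11 (6.21%, against 15.8%). In PMW179 they lay below in 6 (3.39%, against 20.9%) and above in 71 (40.1%, against 19.3%).

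The called bin was X 2200001 to 2300000, within the left part of X. It had 10.6 and 11.1 counts per 10000 autosomal counts in males, against 59.5 and 58.2 in hermaphrodites. Relative to the copy number its log2 fold change was -1.44 (SE 0.30, edgeR adjusted p = 0.0212), or 0.367-fold. The male values of this bin were less than the hermaphrodite values even after doubling, and libraries of a sex hardly differed. Without male library 1 or without male library 2 edgeR called no X bin, and without hermaphrodite library 2 it called 2. Its values were 66.6 and 31.6 in PMW124 males, against 173 and 182 in PMW124 hermaphrodites, so the bin was also lower in males there by more than the copy number. In PMW179 it had 121 and 94.6 in males, against 138 and 146 in hermaphrodites.

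The next X bins by p were not past the threshold. X 15700001 to 15800000 had 1.37 and 0.482 in males, against 13.3 and 9.34 in hermaphrodites (edgeR adjusted p = 0.0646). X 17100001 to 17200000 had 7.65 and 14.5 in males, against 51.8 and 44.6 in hermaphrodites (edgeR adjusted p = 0.0848). X 11400001 to 11500000 had 0.785 and 0.964 in males, against 12.4 and 7.27 in hermaphrodites (edgeR adjusted p = 0.0848). In each of these bins both male libraries lay below both hermaphrodite libraries, also with the male values doubled. X 15700001 and X 11400001 had few counts in males (7 and 1, and 4 and 2), while X 17100001 had 39 and 30.

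A pair of X bins had no count in either male library, and no X bin was without counts in both hermaphrodite libraries. The male libraries held 3214 and 1357 X counts, against 6069 and 17373 in hermaphrodites, so empty X bins are likelier in males. These bins were picked for having no male count, and the floor used below ignores spread between libraries beyond counting noise. X 11900001 to 12000000 had 15 and 48 counts in hermaphrodite libraries 1 and 2 (edgeR adjusted p = 0.0646). Set against the floor of 3 counts over both male libraries, males were at least 11.6-fold lower, or at least 5.79-fold lower beyond the copy number. X 5200001 to 5300000 had 14 and 27 counts in hermaphrodites, which makes males at least 7.53-fold lower and at least 3.77-fold lower beyond the copy number.

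No X bin was called higher in males beyond the copy number. The bins nearest to it included X 8300001 to 8400000, a peak of X in both sexes, with 46.3 and 54.9 in males, against 91.7 and 62.5 in hermaphrodites (log2 fold change 0.39 beyond the copy number, SE 0.27, edgeR adjusted p = 0.743). X 6100001 to 6200000 had 2.75 and 1.93 in males, against 2.07 and 2.39 in hermaphrodites, a level in males near that of hermaphrodites before any doubling, from few counts (edgeR adjusted p = 0.72). The other 3 of the 5 X bins with the smallest p in this direction had edgeR adjusted p-values from 0.851 to 0.901.

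**Figure D4:**
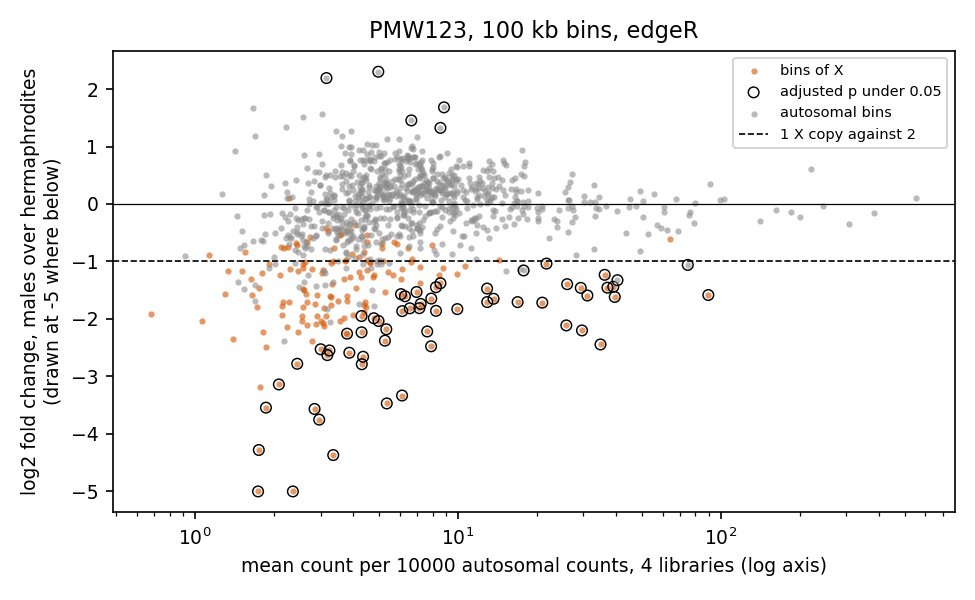
The log2 fold change of males over hermaphrodites from edgeR, with no allowance for copy number, is plotted against the mean count per 10000 autosomal counts (log axis) for 1001 bins of 100 kb; open circles mark an adjusted p under 0.05 and the dashed line marks 1 X copy against 2. The X bins centre on -1.57, below the dashed line, and the autosomal bins centre on 0.08.

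The second question was whether autosomal bins changed between the sexes. Few were called, and the calls were fragile. Of 824 autosomal bins tested with edgeR alongside the X bins, 8 had an adjusted p under 0.05 (0.971%, against 6.29% of all bins). Of the 63 calls over all bins, 55 were X bins, which the copy number lowers in males. Of the 8 autosomal bins called, 5 were higher and 3 lower in males. These calls rest on the adjustment, since X and autosomal bins were adjusted together. With the copy number offset on X, edgeR called 0 autosomal bins, with a smallest adjusted p of 0.0646. That offset leaves the p-values of the autosomal bins as they are. Of the 824 bins, 44 had an unadjusted p under 0.05, near the number that this cutoff passes where no bin differs. DESeq2 called 0 in either form, with 19 at an unadjusted p under 0.05. When 1 library was left out, which leaves a single library in a sex, the calls were lost or moved in part to bins outside these 8. The median log2 fold change of autosomal bins was 0.08, with the middle 50% between -0.29 and 0.37.

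The 5 bins called higher in males lay on 4 autosomes. IV 15200001 to 15300000 had 10.2 and 6.27 counts per 10000 autosomal counts in males, against 1.77 and 1.66 in hermaphrodites (log2 fold change 2.30, SE 0.59, edgeR adjusted p = 0.00974). IV 5600001 to 5700000 had 10.2 and 17.4 in males, against 2.96 and 4.88 in hermaphrodites (1.68, SE 0.43, edgeR adjusted p = 0.00984). III 12000001 to 12100000 had 12.4 and 12 in males, against 5.32 and 4.57 in hermaphrodites (1.32, SE 0.41, edgeR adjusted p = 0.0422). In these bins each male library exceeded each hermaphrodite library.

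The 2 remaining bins were called at the edge of the threshold. I 1500001 to 1600000 had 5.89 and 4.34 in males, against 1.48 and 0.934 in hermaphrodites (2.19, SE 0.70, edgeR adjusted p = 0.0482). II 700001 to 800000 had 11 and 8.68 in males, against 2.66 and 4.26 in hermaphrodites (1.45, SE 0.46, edgeR adjusted p = 0.0482). At IV 15200001 to 15300000 PMW124 had 2.32 and 3.72 in males, against 4.28 and 3.31 in hermaphrodites, so its sexes overlapped. At II 700001 to 800000 the PMW124 values were 0.775 and 5.88 in males, against 0.535 and 0.827 in hermaphrodites, so there a single male library was high. Whether the sex difference at these bins differs between the strains was not tested.

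Of the 3 autosomal bins called lower in males, 1 had sexes that did not overlap. III 7300001 to 7400000, in the middle part of its chromosome, had 12 and 9.64 in males, against 26.9 and 22.5 in hermaphrodites (-1.16, SE 0.33, edgeR adjusted p = 0.0224). The other bins were III 13000001 to 13100000, with 21.2 and 26 in males, against 19.8 and 94.7 in hermaphrodites, and IV 600001 to 700000, with 42 and 56.4 in males, against 48.5 and 152 in hermaphrodites. In both, hermaphrodite library 2 stood high and hermaphrodite library 1 lay within or below the male values, so these calls rest on a single library. Without hermaphrodite library 2 the log2 fold change was 0.23 at III 13000001 and -0.0014 at IV 600001. Among the next bins by p, not past the threshold, I 7000001 to 7100000 had 0.785 and 0.482 in males, against 4.14 and 3.32 in hermaphrodites (edgeR adjusted p = 0.0754). IV 12300001 to 12400000 had 29.2 and 42.9 in males, against 66.0 and 59.6 in hermaphrodites (edgeR adjusted p = 0.0686).

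A single autosomal window of 1 Mb was called, which lies outside the naming rule and was chosen after its values were seen. III 3000001 to 4000000 had 118 and 137 counts per 10000 autosomal counts in males, against 181 and 153 in hermaphrodites, with a log2 fold change of -0.39 (SE 0.12, edgeR adjusted p = 0.027). The window with the largest increase among those nearest to a call was IV 15000001 to 16000000, which holds the bin described above, with 75.2 and 66.5 in males, against 45.9 and 50.3 in hermaphrodites (0.56, SE 0.28, edgeR adjusted p = 0.368). DESeq2 called 0 of 85 autosomal windows, with 2 at an unadjusted p under 0.05.

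At the scale of whole chromosomes the autosomes were divided alike in both sexes. Chromosome V, which has 25.4% of the autosomal bins, held 26.8% and 25.4% of the autosomal counts in males, against 24.6% and 26.4% in hermaphrodites. Chromosome III, with 16.7% of the bins, held 20.5% and 22.2% in males, against 21.7% and 20.6% in hermaphrodites. Chromosome II, with 18.5% of the bins, held 15.8% and 14.8% in males, against 15.7% and 14.8% in hermaphrodites. The sexes overlapped on each of the 5 autosomes, whose log2 differences ran from -0.064 on I to 0.032 on V.

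Chromosome arms, the parts known to contact the lamina, were higher than centres in every PMW123 library. With each autosome cut into 3 parts, the mean over the 5 autosomes of the outer parts against the middle part was 1.46 and 1.98 (log2) in male libraries 1 and 2, against 1.64 and 1.59 in hermaphrodite libraries 1 and 2. The hermaphrodite values lay between those of the male libraries, so the sexes overlapped. The mean was 1.72 ± 0.37 in males and 1.61 ± 0.036 in hermaphrodites (SD, n = 2 each), a difference of 0.10 that is smaller than the spread between the male libraries (exact two-sided permutation p = 1). Its direction rests on male library 2: without it the difference was -0.15, and without male library 1 it was 0.36. In the other strains the same mean ran from 0.082 to 0.84 in PMW124 and from 0.26 to 0.55 in PMW179, so each PMW123 library lay above all 8 of theirs. PMW124 male library 2, with 0.082, stood below the other PMW124 libraries.

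Single chromosomes varied in the size of the contrast. On III the contrast was 1.99 and 2.89 in males, against 2.01 and 2.08 in hermaphrodites. The outer parts of III were unequal. Its right part had log2 levels of 1.37 and 1.56 in males, against 1.40 and 1.31 in hermaphrodites. Its left part lay below the autosomal mean, at -0.56 and -0.36 in males, against -0.28 and -0.28 in hermaphrodites. On IV, which had the weakest contrast of the autosomes, it was 0.49 and 0.81 in males, against 0.72 and 0.80 in hermaphrodites. On X the contrast was 0.59 and 1.17 in males, against 0.89 and 1.12 in hermaphrodites. Male library 2 was above male library 1 on all 6 chromosomes, and the sexes overlapped on all 6. The middle of III had log2 levels of -1.28 and -1.99 in male libraries 1 and 2, against -1.22 and -1.35 in hermaphrodites. The middle of I had -1.32 and -1.90 in males, against -1.44 and -1.48 in hermaphrodites.

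**Figure D5:**
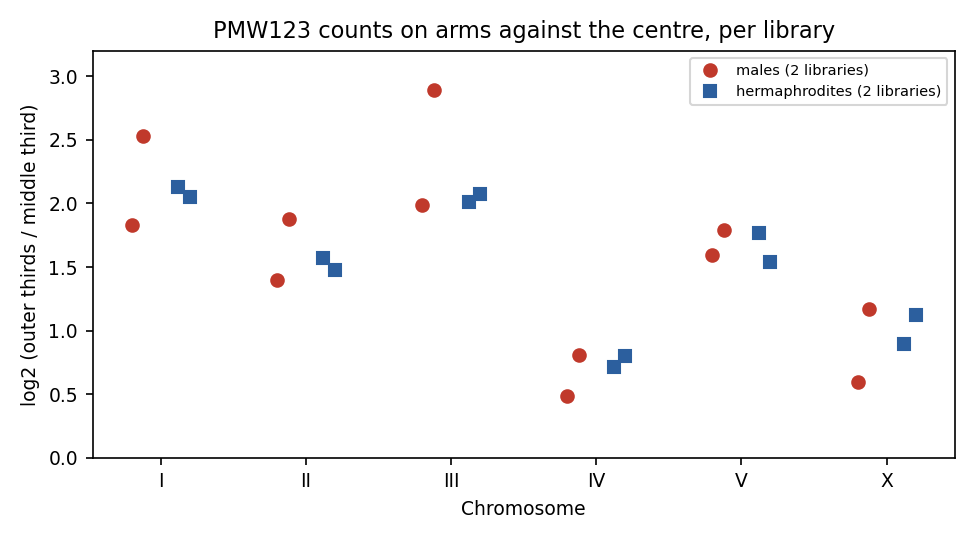
The log2 of the mean count per bin in the outer parts over that in the middle part is plotted for each chromosome and each of the 4 PMW123 libraries. All values are above 0, and the hermaphrodite values lie between or near the male values, which range from 0.49 on IV to 2.89 on III.

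Counts were concentrated in few bins, the highest of which were high in both sexes. The 10 highest autosomal bins of each library held 22.3% and 26.9% of its autosomal counts in males, against 27.0% and 24.3% in hermaphrodites. The highest, III 13700001 to 13800000 at the right end of the chromosome, held 5.02% and 6.49% in males, against 5.82% and 4.86% in hermaphrodites, and 1.22% to 2.85% in the libraries of the other strains. Its neighbour III 13600001 to 13700000 held 2.46% and 2.83% in males, against 1.76% and 1.72% in hermaphrodites (log2 fold change 0.60, SE 0.23, edgeR adjusted p = 0.118). V 3100001 to 3200000 held 3.30% and 3.91% in males, against 3.81% and 4.24% in hermaphrodites. Without the highest 1% of bins in each library the sex difference of X was -1.38.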

How the data were processed

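The authors deposited whole-number read counts per 100 kb bin for 12 libraries, named by strain code, sex and number, and a table of ratios relative to PMW124, of which only the PMW124 columns were read. The submitters' processing notes name cutadapt, Bowtie, SAMtools and the build ce10; the sources used here give no versions, order or settings. Bins carry no coordinates, so positions are consecutive 100 kb steps from each chromosome start. The PMW123 columns were assigned to lmn-1 without a label that pairs them. The mitochondrial bin was left out.

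Males were compared with hermaphrodites in edgeR 4.0.16 (R 4.3.3, quasi-likelihood, library size the autosomal total, factors of 1) on bins with at least 10 counts over 4 libraries, which drops 4 bins, with Benjamini-Hochberg adjustment over all nuclear bins and calls at 0.05. An SE is the log2 fold change over the root of the quasi-F. Another fit lowered the offset of male X bins for 1 copy against 2, also on 1 Mb windows of 10 bins. X level and arm contrast were tested by exact permutation over libraries. DESeq2 1.42.0 was an alternative. The fits were also run on simulated data with the same dispersion for all bins, and no result here rests on that run.

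Named were up to 10 autosomal bins, 5 X bins and 5 windows per direction with the smallest p among those called with sexes that did not overlap; where fewer passed, bins with the next smallest p, up to 5 per direction, could be given as not past the threshold. Members and tests were chosen with earlier results of these data known. Adjusted p in the text are from edgeR.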

Additional observations from a re-analysis of the deposited data

Results flagged for a closer look

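The mitochondrial bin, which entered no comparison, held a larger share of counts in PMW123 than in PMW124, and a larger one still in PMW179. It held 0.331% and 0.401% of all counts in PMW123 males and 0.36% and 0.46% in PMW123 hermaphrodites, against 0.186% and 0.174% in PMW124 males and 0.211% and 0.233% in PMW124 hermaphrodites. The mean share in PMW123 was 1.93 times that in PMW124, and each PMW123 library lay above each PMW124 library. In PMW179 the bin held 0.916% and 1.17% in males and 1.11% and 0.88% in hermaphrodites, a mean share 5.07 times that in PMW124 and above every PMW123 library. Between the sexes of PMW123 the shares overlapped.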

How the results depend on the processing

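The X difference between the sexes kept its direction under all 8 alternatives, from -1.81 (medians of bins) to -1.38 (without the highest 1% of bins). Counts of calls did not hold. The 8 autosomal bins became 0 with DESeq2, 0 with the copy number offset, 0 when adjusted over autosomal bins alone and 1 with the replicate block. Similar counts did not mean the same bins: all 12 libraries in the fit gave 7, of which 4 were among the 8. With the library size over all nuclear counts 8 were called, of which 6 were among them. When 1 library was left out, the calls were lost or moved in part to other bins. The 1 X bin beyond copy number became 0 with TMM, 0 with all 12 libraries in the fit, 0 with the replicate block, 8 when adjusted over X bins alone (chosen after seeing the data, like the copy number offset for autosomes), and 0 to 2 without 1 library. The 6 windows became 2 with the library size over all nuclear counts, 2 with DESeq2, 1 with all 12 libraries, 1 with the replicate block, and 0 to 5 without 1 library. Fewer libraries remain in some of these fits; otherwise the cause was not tested. Nothing in the labels says that library numbers pair the sexes, and library 1 minus library 2 correlated at -0.094 between the sexes over autosomal bins, so the replicate block has no basis in the design. For the named bins and windows, 93 alternatives kept the direction without passing the threshold, 68 kept both and 1 reversed the direction. Leaving out 1 library moved the arm contrast between -0.15 and 0.36, the X sex difference of PMW123 minus PMW124 between -0.38 and 0.23, and III 13000001 between -2.03 and 0.23. Depth limits single bins: the median X bin had 11 and 3 counts in males, against 17 and 59 in hermaphrodites.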

Other observations

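A few autosomal bins differed between libraries of the same strain and sex. They were singled out after their values were seen, and no test was made. At IV 600001 to 700000 the level per 10000 autosomal counts was 152 in PMW123 hermaphrodite library 2, against 48.5 in library 1. In PMW124 the same bin had 16.3 and 76.7 in male libraries 1 and 2, against 98.4 and 9.93 in hermaphrodite libraries 1 and 2. In PMW179 it had 42.7 and 61.2 in males, against 82.9 and 45.1 in hermaphrodites.

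III 13000001 to 13100000 was high in the same libraries: 94.7 in PMW123 hermaphrodite library 2, 46.8 in PMW124 male library 2, 40.7 in PMW124 hermaphrodite library 1 and 61.7 in PMW179 hermaphrodite library 1, against 7.36 to 26 in the other libraries except PMW179 male library 2, which had 40.5. IV 4100001 to 4200000, not past the threshold for a sex difference, had 36 in PMW123 hermaphrodite library 2, 29.4 in PMW124 male library 2 and 37.4 in PMW179 hermaphrodite library 1, against 1.94 to 12 in the other 9 libraries. III 13000001 and IV 600001 are the bins called lower in males whose sexes overlapped.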
